A study of Vitis vinifera with 18 samples.

Results

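In ripe grape berries, 200 abundant transcript clusters held nearly level counts across 2 varieties and 3 growing sites, and this account describes how level they were and where they still differed. They were chosen from 97442 clusters by their measured values. A cluster needed 20 or more counts in each of 17 libraries, which left 13971. Of these, 4306 had a mean of 1000 or more counts after division by median-of-ratios size factors (the median, over clusters, of a library's count relative to the geometric mean of all libraries). In 1382 of the 4306, the means of the 6 variety and site groups spanned less than 0.6 on the log2 scale, and the 200 with the lowest standard deviation (SD) of log2 values over the 17 libraries are the members. Because the counts themselves chose the members, their low spread in these 17 libraries is a description and carries no test.

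The groups were Aglianico and Cabernet Sauvignon (Vitis vinifera), each from open-field vines in Campania, Molise and Sicily, bush trained and spur pruned per the labels. The design gives 3 biological replicates per group, each a pool of 10 frozen berries ground without seeds, and polyadenylated RNA was sequenced. Each group is therefore 1 variety at 1 site, and differences between sites cannot be told apart from anything else that differed between the vineyards. Pooled whole berries mix skin and flesh, so in such bulk RNA fewer cells of a type and less RNA per cell cannot be told apart.

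Transcripts that keep a steady share of the messenger RNA pool often come from genes of basic cell upkeep, such as the cytoskeleton, protein synthesis, protein turnover and central metabolism. Genes of this kind are used as internal references, against which the expression of other genes is expressed. A reference is useful only where its own level is steady across the tissues, genotypes and treatments compared, and a reference that is steady in one setting need not be steady in another. Fruit ripening is a demanding setting, since cell walls, sugars, acids and pigments are all remodelled.

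The clusters carry numbers and no gene names. Looked up in a RefSeq gene list of the species (GCF_030704535.1), 0 of the 200 identifiers were found, so 0 lists of reference genes or of seed markers could be looked up, the fruit label could not be set beside marker genes, and no role is given to any member. All 200 members carry the same number before the dot of the identifier, as do all 4306 abundant clusters and 66.2% of all clusters.

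Libraries held 22637307 to 31859647 expected counts. The library labelled Aglianico Campania replicate 3 went against its label, since it lay nearest to Cabernet Sauvignon Campania, and took no part in the choice of members. Cabernet Sauvignon Sicily replicate 2 and a library of the same group whose column carried no legible replicate number (the unnumbered library) stood apart by the number of clusters with 10 or more counts, 45079 and 29212, against 19155 to 25443 in the other libraries of the choice. All 200 members still spanned less than 0.6 when both were left out, although 141 of the 200 would then have been chosen.

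The members were spread over the abundances of the other abundant clusters. Their normalised mean counts ran from 1008 to 24140 with a median of 2152, beside a median of 2055 among the other 4106 abundant clusters. Of the 1000 most abundant clusters 49 were members, of the 500 most abundant 13, and of the 100 most abundant 1. Members made up 4.22% of clusters with means of 1000 to 2000, 5.44% of those from 2000 to 5000, 4.76% of those from 5000 to 10000 and 3.1% of those above. Group means spanned less than 0.6 in 32.8%, 33.5% and 31.4% of clusters in the lower 3 classes and in 19% of the 258 clusters above 10000 counts.

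**Figure D1:**
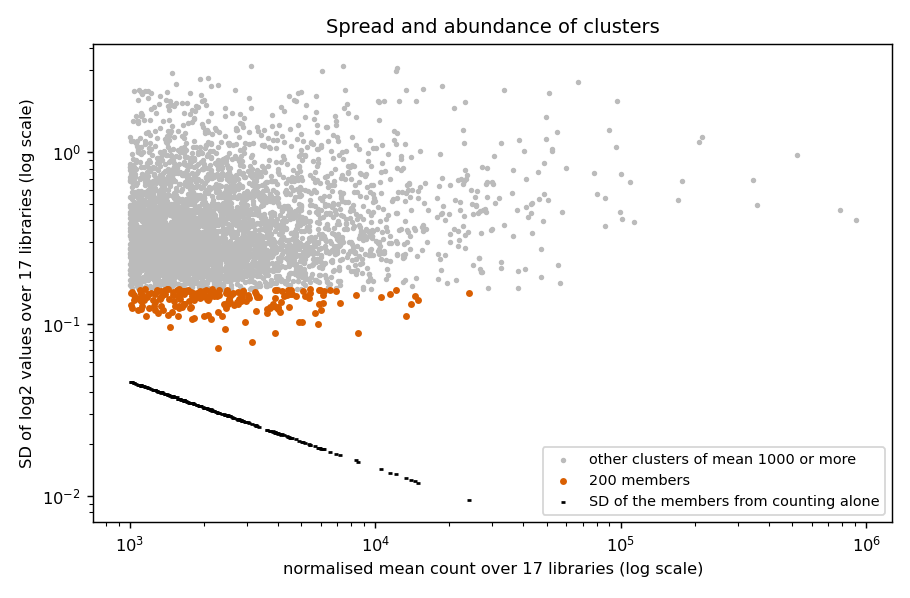
Normalised mean count (x axis, log scale) and SD of log2 values over 17 libraries (y axis, log scale) of the 4306 abundant clusters, with the 200 members in orange and, as black dashes, the SD that counting alone would give each member. The members lie along the lower edge of the cloud at every abundance up to 24140 counts, and all lie above their counting limit.

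The SD of a member's log2 values ran from 0.0724 to 0.159, with a median of 0.143, beside 0.34 for the other abundant clusters. In the median member the highest of the 17 libraries was 1.43 times the lowest, and in the most variable by this measure 1.64 times. The median coefficient of variation was 9.81%. Counting alone would give the members an SD of 0.00939 to 0.0461. Measured spread exceeded it 2.39-fold to 16.1-fold, with a median of 4.46-fold, so at these depths counting error was the smaller part of the spread in every member. The figures for counting cover counting error only.

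The thresholds cut through continuous distributions. Cluster-27903.31656, with a mean of 1008, was the least abundant member, and Cluster-27903.27412 was left out at 999 with an SD of 0.143. Under the mean threshold, 134 clusters met every other condition of the members. By spread, the last member was Cluster-27903.34737 (SD 0.159) and the first left out Cluster-27903.32820 (0.15941 against 0.159). The limit on the span decided nothing, since the largest span of a member was 0.453 and Cluster-27903.31485, just inside the limit at 0.59982, had an SD of 0.238 and was no member. Cluster-27903.30511 lay just outside at 0.60011.

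The lowest SD belonged to Cluster-27903.30470. In Aglianico it had normalised counts of 2257 and 2076 at Campania, 2183, 2140 and 2269 at Molise and 2460, 2549 and 2336 at Sicily. In Cabernet Sauvignon it had 2303, 2312 and 2284 at Campania, 2232, 2274 and 2193 at Molise and 2414 and 2332 in replicates 2 and 3 and 2352 in the unnumbered library at Sicily. With the rule's size factors Sicily was the highest site by its mean in both varieties. The Aglianico Sicily libraries did not overlap those of Aglianico Campania or Molise. Upper-quartile factors stood 0.071 to 0.18 (log2) above the size factors in the Cabernet Sauvignon Sicily libraries. In the Cabernet Sauvignon libraries of Campania and Molise they stood below them, so the site order in that variety depends on the scaling. Its SD of 0.0724 was 0.0446 within groups, beside 0.0303 from counting alone.

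Cluster-27903.32532 came next, at 2906 and 3308 in Aglianico Campania, 3155, 3271 and 3221 in Molise and 3164, 3162 and 3193 in Sicily. In Cabernet Sauvignon it had 2987, 3084 and 2962 at Campania, 3373, 3313 and 3377 at Molise and 3015, 2911 and 2850 at Sicily (the last from the unnumbered library). Its highest counts were those of Cabernet Sauvignon Molise, where no library overlapped the other Cabernet Sauvignon sites, whereas the Aglianico sites overlapped.

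The next members were more abundant. Cluster-27903.35015 averaged 4067 normalised counts in Aglianico and 3777 in Cabernet Sauvignon (8 and 9 libraries), with group means from 3668 ± 41.2 in Cabernet Sauvignon Sicily to 4274 ± 166 in Aglianico Molise (SD, n = 3 each). Cluster-27903.33576 had 7831 ± 17.5 in Aglianico Campania (SD, n = 2), 8393 ± 599 in Molise and 8789 ± 269 in Sicily, and 7991 ± 168, 8460 ± 278 and 9155 ± 144 in Cabernet Sauvignon at the same sites (SD, n = 3 each). With the rule's size factors the order of its means in both varieties was Campania, Molise, Sicily. The 3 Cabernet Sauvignon sites did not overlap with these factors, whereas Aglianico Molise overlapped both of its neighbours in that order. The separation of the Cabernet Sauvignon sites depends on the scaling, as for Cluster-27903.30470. Its Sicily libraries were 9232 (replicate 2) and 9244 (unnumbered library), which stood apart by their number of clusters, and 8989 (replicate 3).

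**Figure D2:**
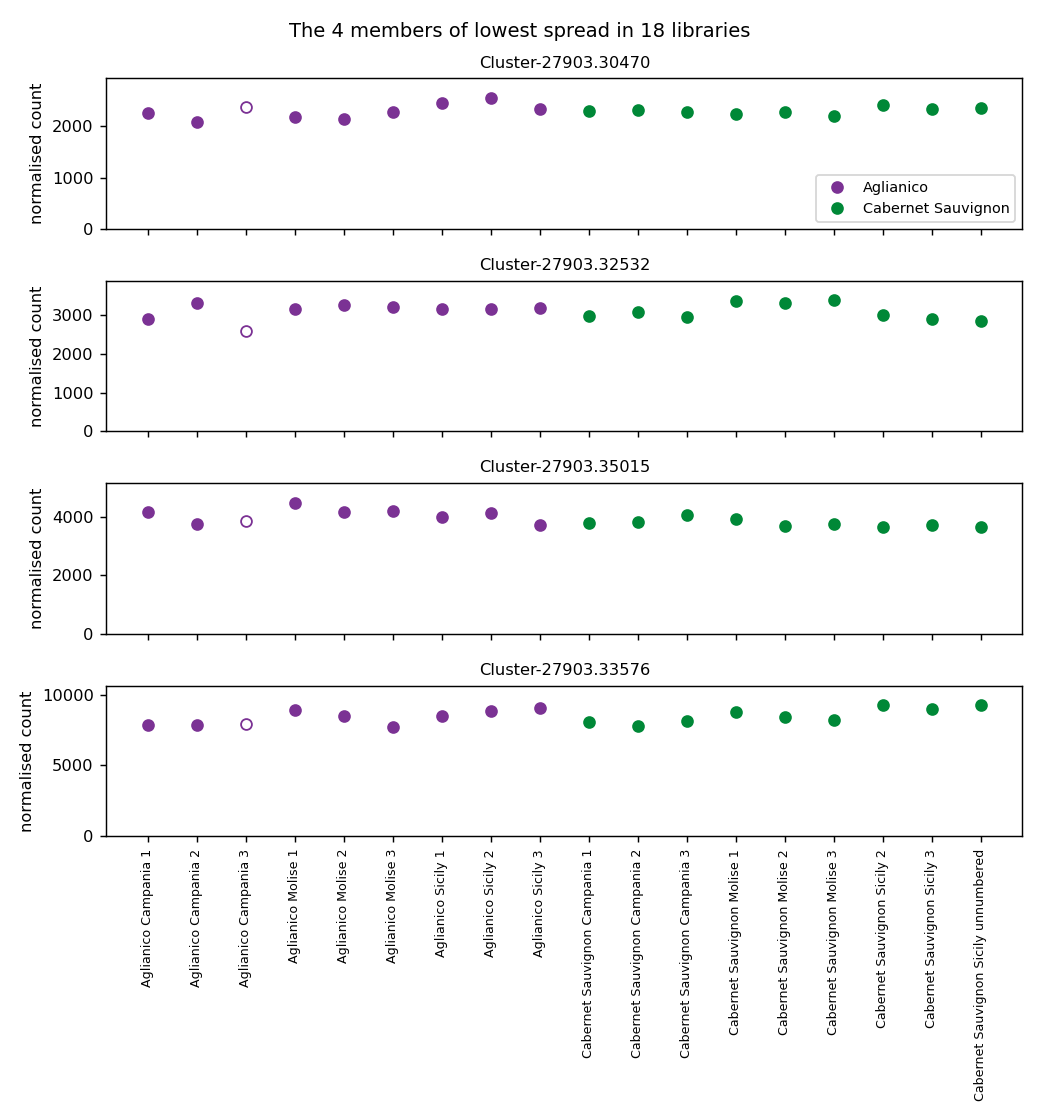
Normalised counts (y axes, from 0) of the 4 members of lowest spread in the 18 libraries (x axis), with 1 point per library, Aglianico in purple and Cabernet Sauvignon in green; the open point is the library labelled Aglianico Campania replicate 3, which the choice left out. Cluster-27903.30470 stays between 2076 and 2549, and the open point of Cluster-27903.32532, at 2601, lies below the 17 other libraries.

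The ratio of 2 counts within a library is free of any scaling. The count of Cluster-27903.32532 divided by that of Cluster-27903.30470 ranged from 1.21 in the unnumbered library to 1.59 in Aglianico Campania replicate 2 over the 17 libraries, and was 1.1 in the library labelled Aglianico Campania replicate 3. Over the 17, the SD of the log2 ratio was 0.126, larger than the SD of either cluster alone, and the 2 clusters were highest in different libraries. Over all 19900 pairs of members the SD of the log2 ratio had a median of 0.191 and ran from 0.069 to 0.296. Over the 8427565 pairs of other abundant clusters the median was 0.551, but the lowest was 0.0523, so some pairs of less level clusters kept a tighter ratio than any pair of members. The members were chosen for low SD in the same 17 libraries, which limits the SD of their ratios. Their lower median therefore follows from the choice and is no separate sign of levelness.

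The most abundant members were less level than these. Cluster-27903.32950, ranked 94 of 13971 in abundance, had 18190 and 21644 normalised counts in Aglianico Campania, 25379, 24951 and 29689 in Molise and 24363, 24097 and 23376 in Sicily. In Cabernet Sauvignon it had 26783, 25569 and 24503 at Campania, 21594, 23964 and 23631 at Molise and 25827, 24116 and 22705 (unnumbered library) at Sicily. Campania was the lowest site in Aglianico, with no overlap, and the site of highest mean in Cabernet Sauvignon, where Campania and Sicily overlapped. The highest library was 1.63 times the lowest.

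Cluster-27903.33056 averaged 15523 in Aglianico and 14503 in Cabernet Sauvignon, with an SD of 0.149 within groups that was larger than its SD of 0.137 over all 17 libraries. Its Aglianico libraries ranged from 13272 to 18779 and its Cabernet Sauvignon libraries from 13102 to 15966. Cluster-27903.32322 averaged 14255 and 14842, with its lowest group mean in Aglianico Sicily, 12619 ± 670 (SD, n = 3), and its highest in Aglianico Campania, 16000 ± 2362 (SD, n = 2). Cluster-27903.33933 stood at 16010 ± 525 in Cabernet Sauvignon Sicily against 12782 ± 130 at Campania and 12927 ± 398 at Molise (SD, n = 3 each). Its Cabernet Sauvignon Sicily libraries were 16527, 15478 and 16024, above every other library of the choice with the rule's size factors. Of the 3, 2 are those that stood apart by their number of clusters. The third, replicate 3, was the 15478.

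The span of group means was smallest in Cluster-27903.32312, at 0.111. Its group means lay between 4876 ± 288 (Aglianico Campania, SD, n = 2) and 5265 ± 222 (Cabernet Sauvignon Campania, SD, n = 3), and its spread lay within groups, as in Aglianico Molise with 5495, 4118 and 5346. Cluster-27903.33199 had a span of 0.132, with 6548, 4901 and 6640 in Cabernet Sauvignon Campania. The span was largest in Cluster-27903.37441, at 0.453, with 4094 ± 50.6 in Aglianico Campania (SD, n = 2) against 2991 ± 34.6 in Cabernet Sauvignon Campania (SD, n = 3). Cluster-27903.28194 had a span of 0.44, from 1957 ± 130 in Aglianico Campania (SD, n = 2) to 2654 ± 122 in Cabernet Sauvignon Molise (SD, n = 3).

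Variety, site and their interaction together took a smaller part of the members' variance than of the others', a description of the libraries that chose them. In the members, variety took 12.7%, site 21.4%, the interaction 19.7% and the spread within groups 46.2%, with terms fitted in that order. In the other abundant clusters the shares were 22.9%, 32.9%, 24.2% and 20.1%. No single direction dominated what was left, since the first 5 principal components of the members held 14.5%, 14%, 13.1%, 12% and 9.39% of their variance. Within groups, the median SD of a member was 0.112, beside 0.206 for the other abundant clusters.

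The members did not share a ranking of groups. The highest group mean was in Cabernet Sauvignon Molise for 44 members, Aglianico Campania for 42, Cabernet Sauvignon Sicily for 38, Aglianico Molise for 26, and Aglianico Sicily and Cabernet Sauvignon Campania for 25 each. The lowest was in Cabernet Sauvignon Campania for 49, Aglianico Sicily for 38, Aglianico Molise for 37, Aglianico Campania for 33, Cabernet Sauvignon Sicily for 24 and Cabernet Sauvignon Molise for 19. Cabernet Sauvignon was the higher variety for 109 of 200 members, beside 7094 of the 13971 kept clusters. This ranking moved with the scaling: with upper-quartile factors Cabernet Sauvignon Sicily held the lowest mean of 92 members, and with TMM factors (trimmed mean of M values) of 27.

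**Figure D3:**
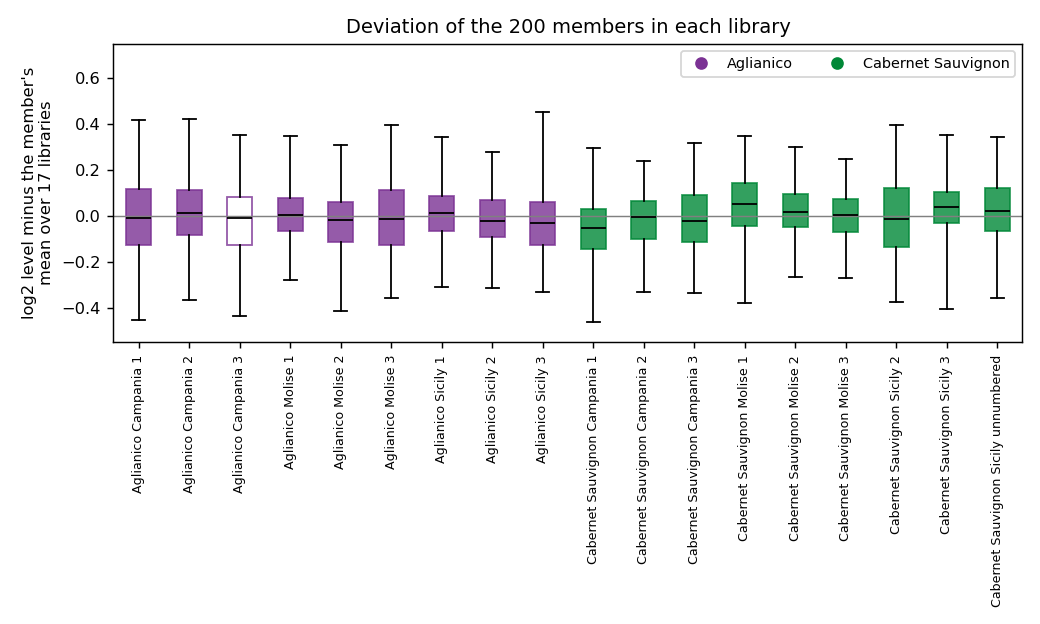
Log2 level of the 200 members minus each member's mean over 17 libraries (y axis) in the 18 libraries (x axis); boxes span the quartiles with the median as a line, whiskers reach the lowest and highest member, and the white box is the library labelled Aglianico Campania replicate 3. Medians of the 17 libraries lie between -0.0534 and 0.0512, and no member lies beyond -0.463 or 0.452.

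By library, the median absolute deviation of the members was largest in Cabernet Sauvignon Sicily replicate 2, at 0.129, and smallest in Cabernet Sauvignon Molise replicate 2, at 0.0718. Cabernet Sauvignon Campania replicate 1 held the lowest level of 27 members and the highest of 3. Cabernet Sauvignon Sicily replicate 2 held the lowest of 26 and the highest of 20, and Cabernet Sauvignon Molise replicate 1 the highest of 22. Cabernet Sauvignon Molise replicate 3 was at an extreme least often, highest for 3 members and lowest for 3.

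A library that took no part in the choice shows how level such clusters are in a further library of this design. It gives no reading at an unused variety or site, since the library left out lay nearest to Cabernet Sauvignon Campania, whose libraries took part. In the library labelled Aglianico Campania replicate 3, the members deviated from their mean over the other 17 libraries by a median of 0.105 in absolute log2 value, against 0.229 for the other abundant clusters. Of the 200 members, 184 (92%) lay within 0.3 of their mean, beside 61.2% of the others, and 171 lay inside the range of the 17 libraries. Of the 29 outside that range, 21 lay below it and 8 above, and 15 of the 16 members beyond 0.3 were low.

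The farthest was Cluster-27903.33670, with 1224 normalised counts in that library against 1409 to 1909 in the other 17. Cluster-27903.33056 had 11210 there against 13102 to 18779. Cluster-27903.33933 had 10575 against 12518 to 16527, and Cluster-27903.33199 had 4684 against 4901 to 6914. All 4 were lower there than in any library used for the choice, including the 3 of Cabernet Sauvignon Campania.

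The members placed that library with Cabernet Sauvignon Campania as well. Over the 200 members its root mean square distance was 0.127 (log2) to the Cabernet Sauvignon Campania mean, against 0.21 to Aglianico Campania, 0.199 to Aglianico Molise, 0.196 to Aglianico Sicily, 0.2 to Cabernet Sauvignon Molise and 0.202 to Cabernet Sauvignon Sicily. Over the other 4106 abundant clusters the distance was 0.243 to Cabernet Sauvignon Campania and 0.555 to 0.904 to the other groups. Group means of 2 libraries carry more noise than those of 3, and Aglianico Campania had 2. The low levels of the 4 clusters above therefore come from a library of uncertain origin.

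The same reading was made for each of the 17 libraries, by applying the rule without it and looking at the clusters so chosen in that library alone. The other libraries of its group stayed in the choice, so these readings also cover no unused variety or site. Between 71% and 99% of the 200 clusters lay within 0.3 of their mean over the other libraries, with a median of 88.5% over the 17 libraries. For the other abundant clusters the share ran from 45.9% to 65.8%. The chosen clusters exceeded the others in each of the 18 libraries. The lowest value was that of Cabernet Sauvignon Sicily replicate 2, where 142 of 200 lay within 0.3 and 114 inside the range of the other libraries, followed by Aglianico Campania replicate 1 with 159 and 135. The highest was Cabernet Sauvignon Molise replicate 3, with 198 and 191. Without Cabernet Sauvignon Sicily replicate 2, 157 of the 200 members would still have been chosen, the fewest of any single library, and without the others 169 to 187.

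**Figure D4:**
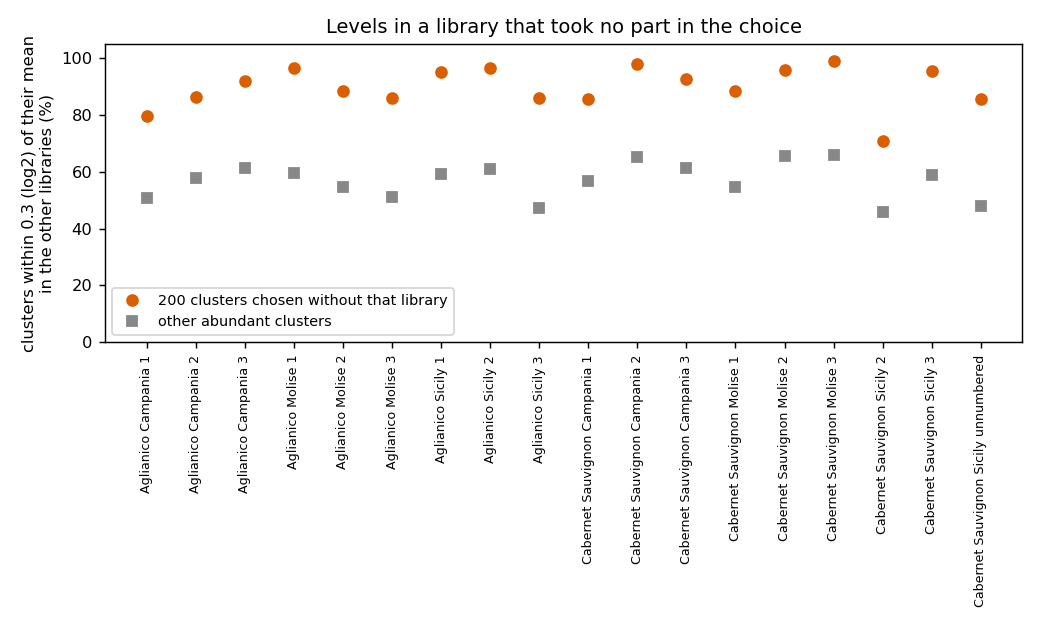
Share of clusters within 0.3 (log2) of their mean in the other libraries (y axis, %) for each library left out of the choice (x axis), for the 200 clusters chosen without it (orange) and the other abundant clusters (grey). The orange points lie between 71% and 99% and above the grey points, at 45.9% to 65.8%, in every library.

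The fit across 29738 clusters gives each member a test of variety and site. The rule bounded the same group means, so these counts describe the members and nothing is read from them. Between the varieties, averaged over sites, 12 of the 200 members (6%) had an adjusted p under 0.05 by the quasi-likelihood test of edgeR, while 30.1% of all clusters were called. Any site difference was called for 5 members (2.5%) in Aglianico, beside 21.7% of all clusters, and for 9 (4.5%) in Cabernet Sauvignon, beside 28.7%. The interaction of variety and site was called for 4 (2%), beside 20.2%. In all, 24 members were called in at least 1 of the 4 tests and 6 in more than 1. A member that was not called is not shown to be equal between groups, and these counts depended on the settings and on single libraries. Without 1 library, with 2 or more left in every group, they ran from 6 to 16 for variety. Calls over all clusters then ran from 7805 to 9023, of 28584 to 29655 tested. For sites, members called ran from 0 to 7 in Aglianico and 2 to 7 in Cabernet Sauvignon. Over all clusters these calls ran from 4071 to 7654 and 6187 to 8728. For the interaction they were 0 to 5 members and 3965 to 6359 clusters.

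The 12 members called between varieties had log2 fold changes of 0.168 to 0.294 in absolute value, and the median standard error of a member's fold change was 0.0706. Of the 12, 11 were lower in Cabernet Sauvignon; with RLE scaling (edgeR's median-of-ratios factors) 2 of 11 called members were higher there, and with upper-quartile scaling 1 of 5. Over all members the fitted log2 fold change had a median of -0.0359, with 125 of 200 below 0. The median was -0.051 over the 4306 abundant clusters and 0.0433 over all 29738 tested clusters. A median below 0 was therefore shared with the abundant clusters at large. Among members, the plain difference of mean log2 levels had a median of 0.0193 with the rule's size factors, and 109 members were higher in Cabernet Sauvignon. With TMM factors taken from the 13971 kept clusters the median was 0.00769, and 106 members were higher there. Over the 13971 kept clusters the medians were 0.00659 and -0.00501, and 7094 and 6904 clusters were higher in Cabernet Sauvignon. The fit took its TMM factors from the 29738 tested clusters instead. It also gave the 3 sites of a variety equal weight, whereas the plain difference averaged the 8 Aglianico and 9 Cabernet Sauvignon libraries. What each of these contributed was not tested.

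Cluster-27903.35840 differed most between the varieties among members. In Aglianico it had 1748 and 1930 normalised counts at Campania, 1916, 1771 and 1865 at Molise and 1747, 1792 and 1615 at Sicily. In Cabernet Sauvignon it had 1563, 1757 and 1617 at Campania, 1543, 1435 and 1491 at Molise and 1391, 1507 and 1406 (unnumbered library) at Sicily. The variety means were 1798 and 1523, and the varieties did not overlap at Molise or Sicily and overlapped over the sites together. Its log2 fold change was -0.29 ± 0.061 (SE), and it was called in each of the 24 alternative fits.

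Cluster-27903.33220 was also lower in Cabernet Sauvignon, at 4118 against 4761 normalised counts, with the lowest library, 3391, in Cabernet Sauvignon Campania replicate 1. Its log2 fold change was -0.26 ± 0.075 (SE), and 19 of the 24 alternatives called it. In the other direction, Cluster-27903.34631 averaged 1666 in Aglianico and 1943 in Cabernet Sauvignon, and Cluster-27903.30001 averaged 4399 and 5093. Of these, Cluster-27903.34631 was called, with a log2 fold change of 0.17 ± 0.057 (SE), in this fit and in 8 of 24 alternatives. The 1 member higher in Cabernet Sauvignon among the 12 was this cluster.

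Level normalised counts did not mean a level share of the library. The members held 1.61% to 3.03% of all counts of the 17 libraries. The share was 2.49% ± 0.38 in Aglianico Campania (SD, n = 2), 2.49% ± 0.11 in Aglianico Molise and 1.95% ± 0.29 in Aglianico Sicily (SD, n = 3 each). It was 2.77% ± 0.024 in Cabernet Sauvignon Campania, 2.92% ± 0.094 in Molise and 2.25% ± 0.18 in Sicily (SD, n = 3 each). In each variety Sicily was the lowest site by its mean, and its libraries lay below those of the other 2 sites without overlap. Members are level after division by size factors, so their share largely follows the size factor relative to the library total. Factors from library totals stood 0.194 to 0.575 (log2) above the size factors in Aglianico Sicily, against -0.155 to 0.129 at the other Aglianico sites. In Cabernet Sauvignon they stood at 0.0361 to 0.255 in Sicily, against -0.271 to -0.184. The lower share at Sicily is therefore no separate finding about the members. In Cabernet Sauvignon Sicily, the 2 libraries with most clusters detected held 2.2% (replicate 2) and 2.09% (unnumbered library), and replicate 3 held 2.45%, beside a lowest value of 2.74% at the other sites. The lowest library was Aglianico Sicily replicate 3 at 1.61% and the highest Cabernet Sauvignon Molise replicate 1 at 3.03%. The library labelled Aglianico Campania replicate 3 had 2.96%, above both other libraries of its group and above the 3 of Cabernet Sauvignon Campania.

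**Figure D5:**
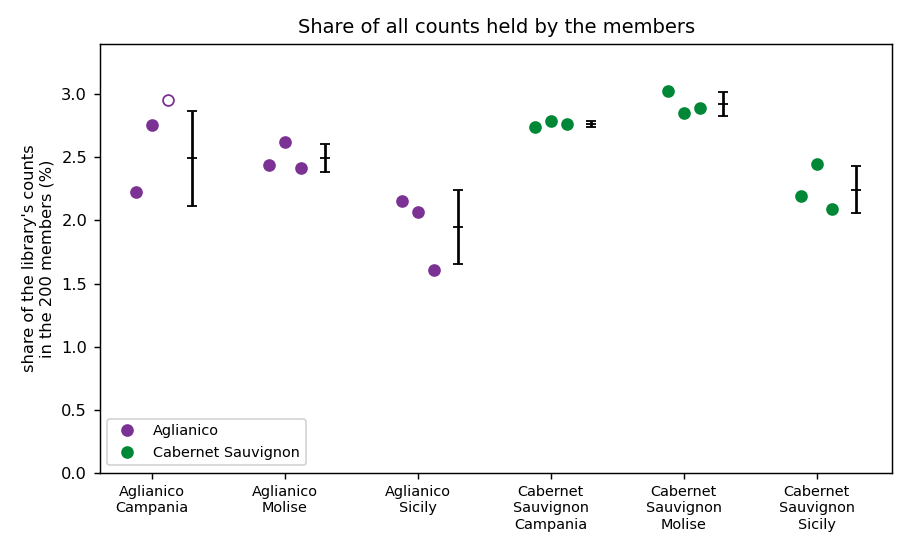
Share of a library's counts held by the 200 members (y axis, %) in the 6 groups (x axis), with 1 point per library, the library labelled Aglianico Campania replicate 3 as an open point, and black bars for the mean ± SD of the libraries used for the choice. Aglianico Sicily is lowest, at 1.61% to 2.16%, and Cabernet Sauvignon Molise highest, at 2.85% to 3.03%.

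The choice of scaling therefore decides whether the members count as level. Scaled by library totals alone, 72 of the 200 kept a span under 0.6, and the median span was 0.651 instead of 0.297. Of the 200, 197 were higher in Cabernet Sauvignon instead of 109, and of all 13971 kept clusters 9952 instead of 7094. The lowest group mean was then in Aglianico Sicily for 186 members and in Cabernet Sauvignon Sicily for 14. The same scaling moved the median of all 13971 clusters between the varieties from 0.00659 to 0.211 on the log2 scale, and that of the members from 0.0193 to 0.224. Size factors hold the middle of all clusters level by construction, and the members are level relative to that middle. With TMM or upper-quartile factors all 200 kept a span under 0.6.

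The decimals of the deposited values, which the rule did not use, were alike in members and other abundant clusters. Of the members' values 55.4% were not whole numbers (farther than 0.005 from one), beside 52% among the other abundant clusters and 6.78% over all clusters. Such values arise where an estimate divides reads between clusters. Counts were whole in all 18 libraries for 8 members (4%) and 244 other abundant clusters (5.94%). In 35 members (17.5%) no library held a whole number. How far such division moved a member's level was not tested. Numbers after the dot in the identifier ran from 27733 to 40217 in members (median 33010) and from 13496 to 47218 in the others (median 32720). What those numbers encode is not given in the sources used here.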

How the data were processed

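RNA sequencing gave 18 libraries of ripe berries. The authors deposited 1 table of expected counts (estimated read counts, not scaled to depth) for 97442 clusters; CASAVA 1.8, RSEM and DESeq2 appear in the submitters' processing notes with no role. No aligner, assembler or build is given there or in the labels. The rule of the opening was applied to the deposited values. For tests, expected counts were rounded, clusters kept by filterByExpr, scaled by TMM and fitted with edgeR 4.0.16 (glmQLFit and glmQLFTest, robust, R 4.3.3) as 6 group means over 17 libraries; p-values were adjusted by Benjamini and Hochberg over 29738 clusters. The normalised counts of the library left out used its median ratio to the geometric mean of the other 17. Counting SD is the Poisson value. Both steps were tested on simulated data. DESeq2 1.42.0, other scalings, filters, limits and libraries were tried as alternatives. Members, lists, tests and the rule for naming (extremes of SD, mean, span, variety difference and the left-out library) were chosen with earlier results of these data known. Samples were grouped by title.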

Additional observations from a re-analysis of the deposited data

Results flagged for a closer look

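Cluster-27903.32950, the most abundant member, showed a different site pattern in the 2 varieties by the interaction test of edgeR (adjusted p = 0.0472, all clusters tested). Its group means were 19917 ± 2442 normalised counts in Aglianico Campania (SD, n = 2), 26673 ± 2621 in Molise and 23946 ± 511 in Sicily, against 25618 ± 1141, 23063 ± 1283 and 24216 ± 1563 in Cabernet Sauvignon at the same sites (SD, n = 3 each). The call held in 2 of 24 alternative fits, whose adjusted p from edgeR or DESeq2 ran from 0.00564 to 0.222, and the same group means had been bounded by the choice of members.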

How the results depend on the processing

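The rule kept 157 to 187 of the 200 members and 1236 to 1453 clusters under the span limit (1382 with all 17 libraries) without any 1 library, and all 200 members, 200 to 200, still spanned under 0.6. With library totals alone the rule kept 26 members and 576 clusters, and 72 members still spanned under 0.6. A mean of 2000 or more kept 112 members and 698 clusters, a mean of 500 or more gave 2168 clusters, a span under 0.4 gave 462 and a span under 0.8 gave 2213. In the other settings of the rule it kept 137 (upper-quartile scaling) to 200 members. Counts of calls here cover fits with 2 or more libraries in every group. Members called between varieties (12) became 5 with upper-quartile scaling, 1 with no filter and 6 with all 18 libraries. Without 1 library they numbered 6 to 16. Over all clusters the calls (8960 of 29738) became 8683, 5447 of 97300, 7383 of 27519 and 7805 to 9023. In the same order, site calls in Aglianico (5) became 0, 0, 4 and 0 to 7, and 19 by DESeq2. Over all clusters they (6468) became 6443, 2729, 5428, 4071 to 7654 and 8315. Site calls in Cabernet Sauvignon (9) became 24, 0, 3, 2 to 7 and 28. Over all clusters they (8529) became 9352, 4603, 6462, 6187 to 8728 and 9460. Interaction calls (4) became 4, 0, 1, 0 to 5 and 14. Over all clusters they (6007) became 6008, 2246, 3784, 3965 to 6359 and 7794. Beside these counts of 0 and those of the replicate block below, members with an unadjusted p under 0.05 numbered 8 to 23 by edgeR. Such p-values also arise without any difference, so no difference is read from them. The cause of these changes was not tested. Replicate numbers were not used as pairs in the main fit. Of 35 same-numbered pairs, 8 had deviations correlated over 0.1 (median 0.0394, range -0.115 to 0.237). Differently numbered pairs were not compared, so whether the numbers pair the libraries is unsettled. A fit with a replicate block, over numbered libraries, called 7, 0, 1 and 0 members in the 4 tests. Of all 29258 clusters it called 8577, 6119, 6000 and 4774. Without Aglianico Campania replicate 1 or 2, 1 library of that group remained and was assumed to vary like the others. The same held for Cabernet Sauvignon Sicily without both libraries that stood apart. Such fits are among the alternative fits of single clusters but not in the counts of calls above. At the lowest, a member had 572 counts in a library, and the SD from counting alone was at most 0.0461.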
